A study of Mus musculus with 6 samples.

Results

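The guanylate-binding proteins are a family of large GTPases that interferon gamma induces in macrophages. The 8 rows of the deposited expression table whose symbol is Gbp2, Gbp3, Gbp4, Gbp5, Gbp6, Gbp7, Gbp8 or Gbp9 were taken, out of 35275 genes, and were described in 6 RNA sequencing libraries. The macrophages were sorted from spontaneous mammary tumours as cells positive for CD11b and F4/80 and negative for Ly6G and Ly6C. The tumours came from female MMTV-PyMT mice, in which the mouse mammary tumour virus promoter drives the polyoma middle T oncogene in the mammary epithelium. They were of strain FVB/NJ, and the age was 65 days. The 3 mice labelled Atg5 KO carried Atg5flox/flox and LysMcre, a Cre recombinase expressed from the Lyz2 locus of myeloid cells, and the 3 mice labelled Atg5 WT carried Atg5flox/flox without Cre. MMTV-PyMT and the floxed Atg5 alleles were thus shared by both groups, and no mouse without floxed alleles was included. The members were selected on their difference in FPKM between these groups, which was already known, so their values in that comparison are given as a description and support nothing further.

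Guanylate-binding proteins bind and hydrolyse guanine nucleotides through a GTPase domain and assemble on membranes. Interferon gamma binds its receptor, activates the kinases JAK1 and JAK2, and transcription factors that include IRF1 switch the genes on. In infected mouse macrophages the proteins gather on vacuoles that hold pathogens, and some members promote inflammasome activation. The autophagy conjugation system that contains ATG5 is known to be needed in mouse cells for their delivery to the vacuole of Toxoplasma.

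Recovered reads numbered between 19906483 and 21173301 in the libraries labelled Atg5 KO and between 18770262 and 19302509 in those labelled Atg5 WT. Fragments per kilobase of gene, scaled to library size (FPKM), are the unit of the table. Levels may be compared between genes only as far as the listed lengths fit the transcripts read, which is uncertain for some members, as given below. Lyz2, the Cre locus, averaged 12.1 ± 3.85 FPKM in the libraries labelled Atg5 KO and 4446 ± 2267 FPKM in those labelled Atg5 WT (SD, n = 3 each), the direction its label gives. The groups thus differ in Lyz2 RNA as well as in the Cre and Atg5 labels, and the design does not separate these. Gene-level Atg5 went against the label, with 16.0 ± 1.77 FPKM in the libraries labelled Atg5 KO and 5.18 ± 0.0875 FPKM in those labelled Atg5 WT. That value covers the whole gene and does not isolate the deleted part, so it checks nothing about the deletion, and directions below follow the labels. The defining macrophage gene Adgre1, which encodes F4/80, stood between 195 and 258 FPKM in the libraries labelled Atg5 KO and between 49.97 and 210 FPKM in those labelled Atg5 WT. Transcripts of mammary epithelium were also present in every library, as given below with the family's level.

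The members lie in 2 clusters, with Gbp2, Gbp3, Gbp5 and Gbp7 on the plus strand of chromosome 3 and Gbp4, Gbp6, Gbp8 and Gbp9 on the minus strand of chromosome 5 (build mm10). To show how alike the members are, 60 coding bases around the codons of the phosphate-binding loop of the GTPase domain are given for each, from a coding transcript in GENCODE M21. Capitals mark the codons of the loop, which were found in all 8 genes.
Gbp2: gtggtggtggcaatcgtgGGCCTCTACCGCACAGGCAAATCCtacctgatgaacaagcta
Gbp5: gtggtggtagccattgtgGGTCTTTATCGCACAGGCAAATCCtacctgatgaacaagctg
Gbp7: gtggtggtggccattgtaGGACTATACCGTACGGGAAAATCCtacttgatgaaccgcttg
Gbp3: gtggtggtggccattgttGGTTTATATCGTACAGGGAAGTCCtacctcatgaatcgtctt
Gbp4: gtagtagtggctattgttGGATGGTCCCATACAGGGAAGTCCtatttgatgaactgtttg
Gbp6: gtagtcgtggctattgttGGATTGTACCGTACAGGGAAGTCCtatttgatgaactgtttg
Gbp8: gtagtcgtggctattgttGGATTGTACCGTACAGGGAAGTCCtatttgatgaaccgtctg
Gbp9: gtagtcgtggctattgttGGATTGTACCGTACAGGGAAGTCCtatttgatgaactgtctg
The windows of Gbp6 and Gbp9 differ at 1 of 60 bases and those of Gbp8 and Gbp9 at 1, whereas that of Gbp2 differs from Gbp5 at 7 and from Gbp4 at 21. Over whole coding sequences, identity at aligned bases ran from 90.6% to 92.9% over the 6 pairs on chromosome 5. It ran from 67.0% to 79.6% over the 6 pairs on chromosome 3 and from 65.8% to 76.5% over the 16 pairs between the clusters.

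Rows of the table do not all stand for 1 gene. The row named Gbp5 spans 142496934 to 142619179 on chromosome 3, from inside Gbp5 to the end of Gbp2b, and its identifier, ENSMUSG00000040264, belongs to Gbp2b in GENCODE M21. Its listed length of 3021 bases equals the part of a coding Gbp5 transcript inside the row. Gbp2b encodes another interferon-inducible family member, so reads of Gbp5 and Gbp2b cannot be told apart in that row. All exonic bases of Gbp7 and Gbp3, which have rows of their own, also lie inside its span. The row named Gbp6 spans 105215699 to 105293699 on chromosome 5 and covers both Gbp6 and Gbp10, whose coding sequences are 98.4% identical. The identifier of that row belongs in GENCODE M21 to a predicted gene, Gm43302, that shares 1726 exonic bases with Gbp6 and 1792 with Gbp10. The rows of Gbp8, Gbp9 and Gbp4 overlap, and their genes share 60 or 61 exonic bases at the 5′ end. The span of the Gbp8 row holds all exonic bases of Gbp9 and 99.4% of those of Gbp4. Of the stretches of 50 bases in each gene's transcripts, 49.9% for Gbp6 (Gm43302 left out), 18.1% for Gbp8, 8.05% for Gbp9 and 7.53% for Gbp4 were also found in another gene of the family, against 2.03% for Gbp2, 3.75% for Gbp3 and 2.26% for Gbp7. Reads from shared stretches can be divided between members, and the mice are FVB/NJ while the reference is C57BL/6J. The effect of either on the values was not tested.

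**Figure D1:**
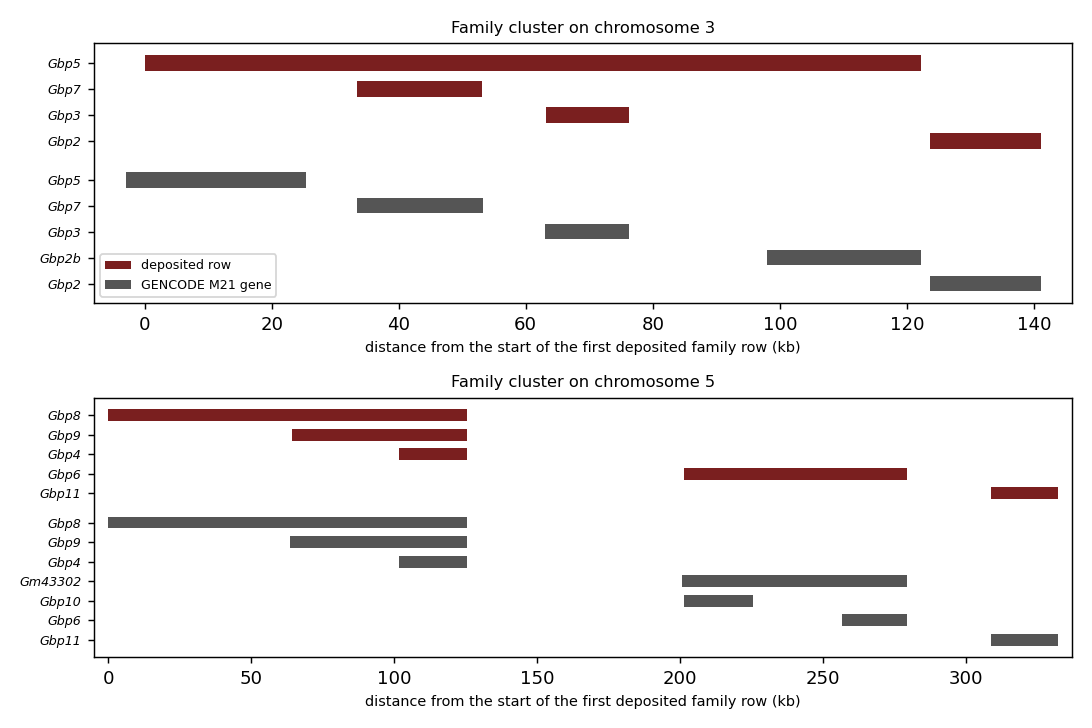
Spans of the deposited family rows (dark red) and of the GENCODE M21 genes (grey) on chromosome 3 (top) and chromosome 5 (bottom), drawn in kilobases from the start of the first deposited row of each cluster. The row named Gbp5 spans 122 kb and ends where Gbp2b ends, and the row named Gbp6 spans 78.0 kb and covers Gbp10 and Gbp6.

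On chromosome 3, Gbp2 was the member of highest level in the libraries labelled Atg5 KO, and Gbp3 in those labelled Atg5 WT. Gbp2, which mice need to control Toxoplasma, had 72.7, 30.9 and 83.9 FPKM in the libraries labelled Atg5 KO (replicates 1, 2 and 3) and 17.8, 14.8 and 15.7 FPKM in those labelled Atg5 WT. Every library labelled Atg5 KO was above every library labelled Atg5 WT, and replicate 2 was the lowest of its group in both. The mean was 3.88-fold higher, a difference of 1.78 with an SE of 0.38 in log2(FPKM + 1). Gbp3, its neighbour in the cluster, had 47.8, 33.6 and 60.9 FPKM in the libraries labelled Atg5 KO and 20.1, 11.5 and 23.8 FPKM in those labelled Atg5 WT. Its groups did not overlap either, but the lowest library labelled Atg5 KO was only 1.41 times the highest labelled Atg5 WT, and the mean fold was 2.57, with a difference of 1.33 (SE 0.33) in log2(FPKM + 1).

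The row named Gbp5, whose gene product has been reported to promote assembly of the NLRP3 inflammasome in mouse macrophages, had 34.4, 12.4 and 43.6 FPKM in the libraries labelled Atg5 KO and 4.95, 2.66 and 5.77 FPKM in those labelled Atg5 WT. Among the 4 chromosome 3 members it had the largest difference, 6.76-fold in the means and 2.39 with an SE of 0.50 in log2(FPKM + 1), and the row's span also covers Gbp2b. Gbp7, which has been linked in mice to autophagy and NADPH oxidase assembly on bacterial vacuoles, had 19.98, 11.8 and 24.2 FPKM in the libraries labelled Atg5 KO and 5.85, 4.44 and 8.02 FPKM in those labelled Atg5 WT. Its mean was 3.06-fold higher, a difference of 1.44 with an SE of 0.31 in log2(FPKM + 1), with no overlap of the groups.

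To show which interferon response letters lie before these genes, promoter sequence was taken from RefSeq (GRCm38.p6), whose table matched 4 of the 8 members, those on chromosome 3. The last 180 bases before the start are printed, and for Gbp2 the RefSeq start lies inside the deposited row. Capitals mark the core of the interferon-stimulated response element (GAAA, any 2 bases, GAAA, or its reverse complement) and that of the gamma-activated site (TTC, any 3 bases, GAA), searched on both strands.
Gbp2, chr3:142620483-142620662, plus strand: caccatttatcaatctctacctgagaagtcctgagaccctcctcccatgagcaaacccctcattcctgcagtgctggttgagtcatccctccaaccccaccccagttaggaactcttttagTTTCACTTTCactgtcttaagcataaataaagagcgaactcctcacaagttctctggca
Gbp3, chr3:142559864-142560043, plus strand: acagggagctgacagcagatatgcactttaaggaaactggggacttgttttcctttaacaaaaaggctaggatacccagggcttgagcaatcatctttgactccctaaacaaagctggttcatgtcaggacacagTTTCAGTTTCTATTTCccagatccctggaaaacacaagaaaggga
Gbp5, chr3:142496754-142496933, plus strand: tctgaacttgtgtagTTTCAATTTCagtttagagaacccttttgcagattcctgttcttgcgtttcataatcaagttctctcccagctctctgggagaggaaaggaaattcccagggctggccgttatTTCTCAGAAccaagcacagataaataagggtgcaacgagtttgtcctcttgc
Gbp7, chr3:142530156-142530335, plus strand: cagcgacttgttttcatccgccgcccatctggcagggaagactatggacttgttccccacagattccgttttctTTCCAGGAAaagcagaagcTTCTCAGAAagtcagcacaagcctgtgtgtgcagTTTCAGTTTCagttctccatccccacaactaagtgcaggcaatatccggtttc
The response element core was found in the 250 bases before the start of each of these 4 genes, against 2.98% of 32851 such windows of RefSeq. Its first base lies at -59 in Gbp2, at -165 in Gbp5 and at -53 in Gbp7, counted from the RefSeq start. The Gbp2 match lies inside the deposited row and inside the GENCODE M21 gene, which both start at 142620602. The GENCODE M21 gene Gbp5 starts at 142493978, so the matches of Gbp5 also lie inside that gene. Gbp3 has a pair of overlapping matches at -45 and -39. The gamma-activated site core was found before Gbp5, at -52 and at -245, and before Gbp7, at -106 and -87, against 7.02% of all windows. A second listed start of Gbp3 had no match. A match describes letters and was not tested for binding.

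The summed level of the chromosome 5 members was below that of the chromosome 3 members in every library, and their folds ranged more widely, between 2.51 and 28.7. Gbp8 had the lowest level in the libraries labelled Atg5 WT and the largest difference of the family. It had 19.3, 2.55 and 25.7 FPKM in the libraries labelled Atg5 KO and 0.704, 0.0632 and 0.888 FPKM in those labelled Atg5 WT. Those values rest on 1004, 130 and 1257 reads in the libraries labelled Atg5 KO and on 33, 3 and 41 reads in those labelled Atg5 WT. For the 3 reads in replicate 2 the exact Poisson 95% interval is 0.619 to 8.77 reads, which covers counting error only. The mean was 28.7-fold higher, a difference of 3.04 with an SE of 0.79 in log2(FPKM + 1). With a mean of 0.552 FPKM in the libraries labelled Atg5 WT, Gbp8 reached the filter of a mean FPKM of 1 over all libraries through the libraries labelled Atg5 KO.

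Gbp4 and the row named Gbp6, which were close to each other in level, had intermediate folds. Gbp4 had 11.9, 2.94 and 14.8 FPKM in the libraries labelled Atg5 KO and 1.80, 0.890 and 1.12 FPKM in those labelled Atg5 WT, with a mean 7.79-fold higher and a difference of 2.06 (SE 0.54). The row named Gbp6, whose span includes Gbp10, had 13.4, 2.59 and 14.3 FPKM in the libraries labelled Atg5 KO and 1.19, 1.26 and 0.889 FPKM in those labelled Atg5 WT, with a mean 9.06-fold higher and a difference of 2.13 (SE 0.58). Both had a library labelled Atg5 KO, replicate 2, that stood much closer to the libraries labelled Atg5 WT than to the other two of its group. Gbp9 had 18.7, 10.02 and 21.3 FPKM in the libraries labelled Atg5 KO and 6.96, 5.75 and 7.27 FPKM in those labelled Atg5 WT. Its fold of 2.51 and its difference of 1.15 (SE 0.28) in log2(FPKM + 1) were the smallest of the family. Gbp11, annotated as a polymorphic pseudogene and not among the 8, had 12, 4 and 10 reads in the libraries labelled Atg5 KO and 2, 2 and 0 reads in those labelled Atg5 WT, and did not reach the filter.

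**Figure D2:**
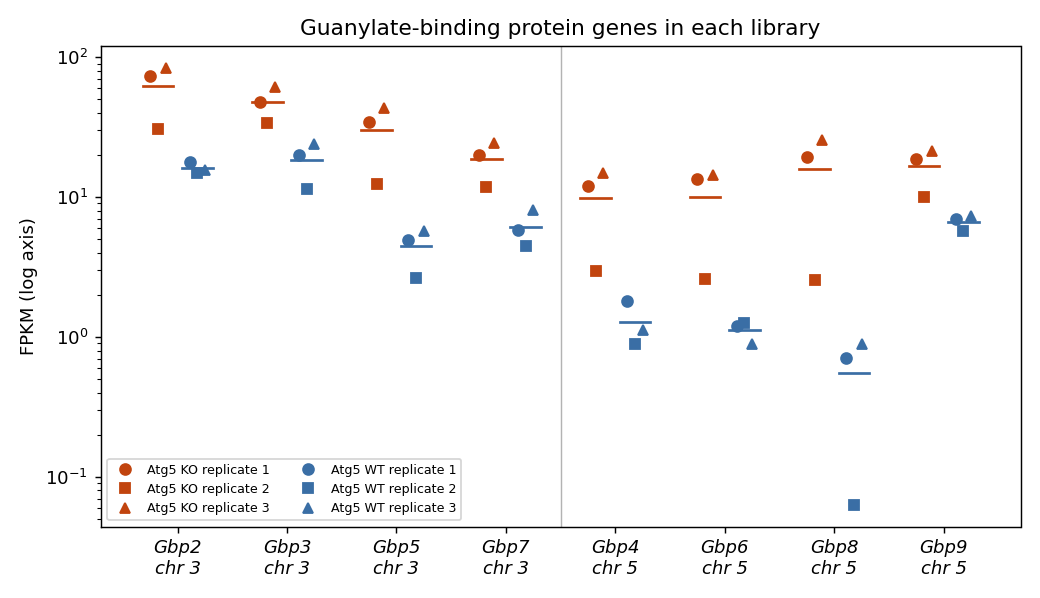
FPKM (log axis) of the 8 genes in each library, with libraries labelled Atg5 KO in orange on the left of each pair and libraries labelled Atg5 WT in blue on the right. Symbols mark the replicate and bars the group mean. The groups do not overlap for any gene, and replicate 2 is the lowest library labelled Atg5 KO for each.

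The groups did not overlap for 8 of 8 members, in each case with the libraries labelled Atg5 KO above, and 9.2% of the 12332 genes tested had such a pattern in that direction and 9.41% in the other. By limma-trend with Benjamini-Hochberg adjustment over all genes, 0 of 8 members passed at 0.05 (adjusted p = 0.492 for each). In either direction 0.00811% of genes did, which is 1 gene, Lyz2 (adjusted p = 0.0306). limma-voom on recovered reads also called 0 of 8, with 0 genes higher and 1 lower in the whole table, and at an unadjusted p under 0.05 the members numbered 8, against 4.84% of genes that were higher. The family was chosen with this contrast known, so nothing is read from these counts. The members' median difference was 1.92 in log2(FPKM + 1), beside -0.09 over all genes tested, and their ranks among the 12332 differences ran from 3 for Gbp8 to 77 for Gbp9. In bulk RNA, more RNA per macrophage and more macrophages or another cell with these transcripts cannot be told apart.

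The libraries fell in the same order for most members. In 8 of 8 members replicate 3 labelled Atg5 KO was highest, then replicates 1 and 2 of that group, with the libraries labelled Atg5 WT below, a pattern held by 4.87% of genes tested. The spread inside the group labelled Atg5 KO differed between members. Replicate 3 exceeded replicate 2 by 1.82-fold for Gbp3, 2.05-fold for Gbp7, 2.13-fold for Gbp9 and 2.72-fold for Gbp2. The ratio was 3.53 for Gbp5, 5.03 for Gbp4, 5.52 for Gbp6 and 10.1 for Gbp8. Replicates 3 and 1 differed far less, from 1.07-fold for Gbp6 to 1.33-fold for Gbp8. Among the libraries labelled Atg5 WT, replicate 2 was the lowest for 7 of 8 members, the exception being Gbp6, against 30.6% of genes tested. Highest over lowest in that group ran from 1.21 for Gbp2 to 14.1 for Gbp8.

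The mean shares of some members in the family's sum differed between the groups as well. The summed level of the 8 members was 238, 107 and 289 FPKM in the libraries labelled Atg5 KO and 59.4, 41.3 and 63.5 FPKM in those labelled Atg5 WT. Gbp2 held 29.5% ± 0.889 of that sum in the libraries labelled Atg5 KO and 30.2% ± 5.51 in those labelled Atg5 WT. Gbp3 held 24.2% ± 6.30 and 33.1% ± 4.93 in the same order of groups, and Gbp9 8.21% ± 1.05 and 12.4% ± 1.35. The share of Gbp5 was 13.7% ± 1.87 in the libraries labelled Atg5 KO and 7.95% ± 1.36 in those labelled Atg5 WT, and that of Gbp8 was 6.46% ± 3.55 and 0.912% ± 0.666 (SD, n = 3 each). The groups did not overlap in the shares of Gbp5, Gbp8 and Gbp9, but overlapped in those of Gbp2, Gbp3, Gbp4, Gbp6 and Gbp7. For Gbp3 the share was 31.5% in Atg5 KO replicate 2 and 27.8% in Atg5 WT replicate 2. Shares of one sum move together, and these were not tested. They also rest on the listed lengths, and the rows named Gbp5 and Gbp6 span further genes.

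Ordered by mean level in the libraries labelled Atg5 KO, the genes ran Gbp2, Gbp3, Gbp5, Gbp7, Gbp9, Gbp8, Gbp6 and Gbp4, and the ranges of every neighbouring pair overlapped. In the libraries labelled Atg5 WT the order was Gbp3, Gbp2, Gbp9, Gbp7, Gbp5, Gbp4, Gbp6 and Gbp8. There the ranges did not overlap between Gbp2 and Gbp9, between Gbp5 and Gbp4, or between Gbp6 and Gbp8. The last of these gaps, between 0.8892 FPKM for the lowest Gbp6 value and 0.8883 FPKM for the highest Gbp8 value, is smaller than the worth of 1 read. The 3 members of lowest level there, Gbp4, Gbp6 and Gbp8, had the largest folds, with Gbp5 next. The same libraries labelled Atg5 WT enter both the level and the fold. The order of levels also rests on the listed lengths, such as 5548 bases for Gbp7, which has another coding transcript of 2497 bases.

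Markers of macrophages and of other cells varied between the libraries, and their part in the family's difference was not tested. The macrophage score, a mean of log2(FPKM + 1) over 10 marker genes, was 8.31, 8.59 and 8.65 in the libraries labelled Atg5 KO and 8.13, 6.87 and 8.65 in those labelled Atg5 WT (exact two-sided permutation p = 0.3, smallest possible 0.1). Higher means were found in the group labelled Atg5 KO for 9 of its 10 genes, with sums between 7754 and 9814 FPKM there and between 2774 and 9501 FPKM in those labelled Atg5 WT. The mammary epithelium and tumour cell score was 6.06, 4.77 and 4.13 in the libraries labelled Atg5 KO and 6.80, 7.76 and 4.72 in those labelled Atg5 WT (exact permutation p = 0.3). Its 10 genes were all lower in mean, summing to between 479 and 2098 FPKM in the libraries labelled Atg5 KO and between 590 and 5897 FPKM in those labelled Atg5 WT. Atg5 WT replicate 2 held the most epithelial and the least macrophage RNA, and was also lowest for 7 members. The groups overlapped in both scores.

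Set against macrophage RNA, the fold of the means was 2.36. The family's sum per 100 FPKM of the 10 macrophage markers was 3.07, 1.19 and 2.94 in the libraries labelled Atg5 KO and 0.891, 1.49 and 0.669 in those labelled Atg5 WT. Atg5 KO replicate 2 was then below Atg5 WT replicate 2, and the groups overlapped. The marker sum is weighted to its highest genes, C1qa and C1qb. They had 3502 and 2061 FPKM of a sum of 7754 in Atg5 KO replicate 1. In Atg5 WT replicate 2 they had 900 and 531 FPKM of 2774. With the macrophage score subtracted from each log2 value, an alternative chosen after seeing the data, the groups still did not overlap for 2 members, Gbp5 and Gbp8, where 0.689% of all genes tested had such a pattern. The members' median difference was then 1.28 and that of all genes -0.73, and since the step shifts every gene of a library alike, the family stood 2.01 above the median gene with it and without it. With the macrophage score or the epithelial score as a covariate in the fit, the members' median was 1.87 or 1.93.

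**Figure D3:**
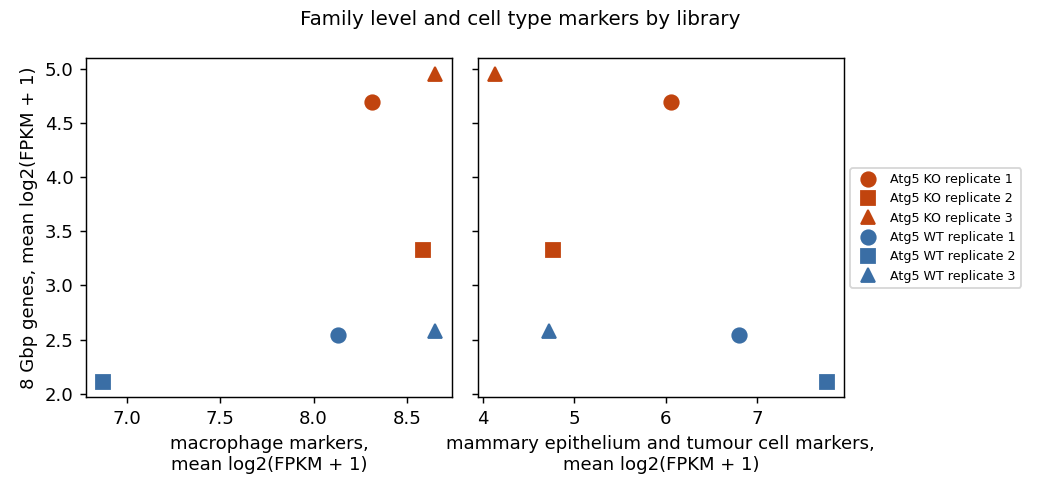
Mean log2(FPKM + 1) of the 8 Gbp genes in each library (vertical axes) against the same mean for macrophage markers (left) and for mammary epithelium and tumour cell markers (right). Libraries labelled Atg5 KO are orange and those labelled Atg5 WT blue. Atg5 WT replicate 2 is lowest on the macrophage axis at 6.87 and highest on the epithelial axis at 7.76. On the vertical axes replicates 1 and 3 labelled Atg5 KO stand highest at 4.69 and 4.95.

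Other cell types were represented at low or lower levels. Fibroblast and pericyte scores were 3.19 ± 0.608 in the libraries labelled Atg5 KO and 4.91 ± 1.13 in those labelled Atg5 WT, and endothelial scores 1.46 ± 0.424 and 2.74 ± 0.626 in the same order (exact permutation p = 0.1 for each, the smallest possible). All 8 and all 7 genes of these lists were lower in the libraries labelled Atg5 KO, with fibroblast sums between 63.0 and 174 FPKM there and between 233 and 1334 FPKM in those labelled Atg5 WT, and no marker of any list was at 0 in every library. T and NK cell scores, of cells that make interferon gamma, were 0.735 ± 0.112 in the libraries labelled Atg5 KO and 0.831 ± 0.0917 in those labelled Atg5 WT (exact permutation p = 0.2), with Cd3e at no more than 0.577 FPKM in any library. Cd4 was the only marker of that list past the filter. B and plasma cell scores were 1.16 ± 0.625 and 2.10 ± 0.732 (exact permutation p = 0.2), dendritic cell scores 2.13 ± 0.439 and 2.33 ± 0.205 (p = 0.6), and monocyte and neutrophil scores 3.14 ± 0.417 and 3.24 ± 0.446 (p = 0.7), each with the libraries labelled Atg5 KO first. The monocyte and neutrophil genes did not share a direction. Ly6c2, which encodes the Ly6C antigen that the sort excluded, had 5.71, 0.702 and 5.29 FPKM in the libraries labelled Atg5 KO and 0.861, 0.483 and 0.875 FPKM in those labelled Atg5 WT. Plac8 had 29.0, 14.1 and 31.9 FPKM in the libraries labelled Atg5 KO and 11.1, 8.97 and 15.0 FPKM in those labelled Atg5 WT. Both had overlapping groups. Both were lowest in replicate 2 among the libraries labelled Atg5 KO, as were the family and 42.2% of all genes tested. The part of such cells in the family's difference was not tested. Csf3r was higher without overlap (difference 0.60), whereas S100a8 (-1.35), S100a9 (-2.14) and Cxcr2 (-0.87) had lower means and overlapping groups. Adjusted over the 8 scores, the smallest p was 0.4.

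The cytokine and its signalling chain showed unequal values. Ifng itself, encoding interferon gamma, had 2, 0 and 3 reads in the libraries labelled Atg5 KO and 0, 4 and 0 reads in those labelled Atg5 WT, so no difference was detectable at this depth. Of 14 tested signalling genes, 10 were higher and 4 lower in mean in the libraries labelled Atg5 KO, with a median difference of 0.42 in log2(FPKM + 1), beside 4593 higher, 7739 lower and a median of -0.09 over all genes tested. Of the 14, 0 passed over all genes in either direction by limma-trend. At an unadjusted p under 0.05, 6 of them were higher, against 4.84% of all genes tested. The groups did not overlap for 6, all with the libraries labelled Atg5 KO above, against 9.2% of all genes tested. Batf2 (12.5 against 3.22 FPKM in the means), Irf8 (75.0 against 38.5 FPKM) and Irf1 (106 against 71.7 FPKM), giving the libraries labelled Atg5 KO first, had groups that did not overlap. So had the receptor gene Ifngr1 (difference 0.53, SE 0.17) and Irf2 (0.55, SE 0.15). The kinase genes Jak1 and Jak2 had differences of -0.04 (SE 0.11) and -0.22 (SE 0.24), and Socs1, the inhibitor of the chain, -0.21 (SE 0.27).

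Other interferon-inducible GTPases were mostly higher in mean in the group labelled Atg5 KO. Of 16 listed, 13 reached the filter, 12 of which were higher in mean in the libraries labelled Atg5 KO and 1 lower, with a median difference of 1.02. For 9 the groups did not overlap, all with the libraries labelled Atg5 KO above, against 9.2% of all genes tested. By limma-trend 10 were higher at an unadjusted p under 0.05, against 4.84% of all genes tested, and 0 passed over all genes. Tgtp2 averaged 12.3 FPKM in the libraries labelled Atg5 KO and 0.872 FPKM in those labelled Atg5 WT, and Gm12250, also called Irgb10, 9.08 and 1.29 FPKM. Gm4951 (difference 1.87, SE 0.47) and Ifi47 (1.79, SE 0.42) followed. Tgtp2, Gm4951 and F830016B08Rik had means of 0.872, 0.648 and 0.419 FPKM in the libraries labelled Atg5 WT. They reached the filter through the libraries labelled Atg5 KO and are included in the counts above. Mx1 and Mx2, GTPases known mainly as type I and III interferon targets, had differences of 0.29 (SE 0.30) and -0.07 (SE 0.27).

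**Figure D4:**
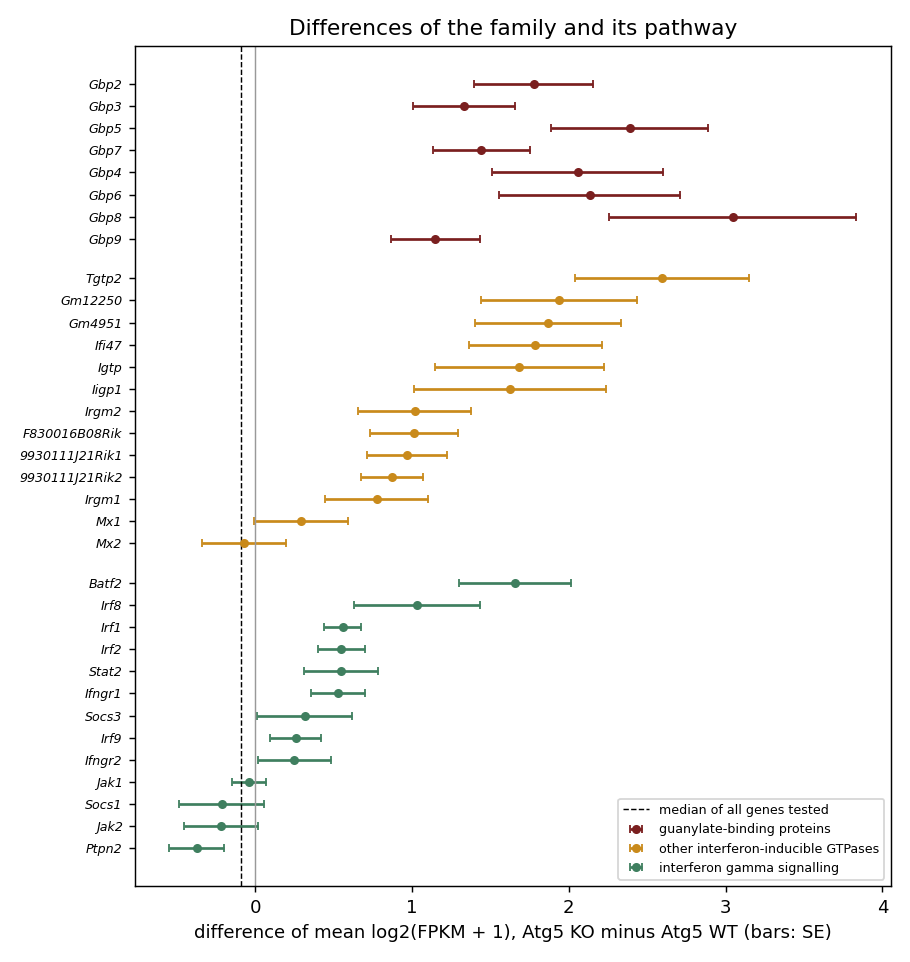
Difference of mean log2(FPKM + 1) between the libraries labelled Atg5 KO and Atg5 WT, with its SE, for the 8 members (dark red), other interferon-inducible GTPases (yellow) and interferon gamma signalling genes (green), for 13 of each of these lists' genes that reached the filter. The dashed line is the median of all genes tested, -0.09; the members lie between 1.15 and 3.04.

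Genes through which the proteins act were mixed, and 0 of them passed over all genes by limma-trend in any of the lists that follow. Of all genes tested, 10% were at an unadjusted p under 0.05 in either direction. Of 11 inflammasome and pyroptosis genes, 9 were higher and 2 lower in mean in the libraries labelled Atg5 KO, with a median difference of 0.54, and 4 were at an unadjusted p under 0.05. Gsdmd, the pore-forming gasdermin, averaged 54.3 and 29.1 FPKM in the libraries labelled Atg5 KO and Atg5 WT, and the inflammasome sensor Nlrp1b 4.11 and 2.25 FPKM, with no overlap of the groups. Aim2, a DNA sensor whose activation depends on guanylate-binding proteins in infected mouse macrophages, had overlapping groups (14.9 and 9.99 FPKM), as did Il1b (449 and 731 FPKM).

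Of 11 genes of the ubiquitin-like conjugation of Atg8 proteins, 6 were higher and 5 lower, with a median difference of 0.01 and 1, Atg5 itself, at an unadjusted p under 0.05. Besides Atg5, the differences furthest from 0 were -0.52 (SE 0.47) for Map1lc3a, -0.23 (SE 0.17) for Gabarapl1 and -0.18 (SE 0.13) for Map1lc3b. The 7 enzymes of prenylation, the lipid modification that anchors some guanylate-binding proteins in membranes, divided into 1 gene with a higher mean and 6 with lower means (median difference -0.12), and 0 were at an unadjusted p under 0.05. Fdps (-0.46, SE 0.29), Fntb (-0.45, SE 0.44), Rce1 (-0.19, SE 0.13) and Icmt (-0.12, SE 0.13) lay furthest from 0. Among 6 genes that tag damaged vacuoles, the median difference was 0.12 (3 higher, 3 lower), and 1, the galectin gene Lgals8 (0.32, SE 0.12), was at an unadjusted p under 0.05. Trim21 (0.47, SE 0.23), Lgals3 (0.43, SE 0.35) and Sqstm1 (-0.40, SE 0.32) had overlapping groups. Of the atlastins, membrane GTPases related to the family in structure, both tested were lower in mean, with differences of -0.68 (SE 0.22) for Atl2 and -0.09 (SE 0.12) for Atl3, and 1, Atl2, was at an unadjusted p under 0.05.

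Genes with profiles most like the family's were found by the root mean square distance, over the 6 libraries, between each gene's centred log2(FPKM + 1) and the mean centred profile of the 8 members. Predicted genes were passed over. Ifi47 was nearest (distance 0.0793), followed by Serpina3f (0.143), Il18bp (0.215), Igtp (0.222), Tlr12 (0.231), Ciita (0.238), Fpr2 (0.242) and Cxcl9 (0.243). Of the members themselves, Gbp2 was at 0.145, Gbp4 at 0.191 and Gbp8 at 0.705, since its changes were larger than the family mean. Ifi47 had 32.9, 13.3 and 42.4 FPKM in the libraries labelled Atg5 KO and 7.45, 5.72 and 8.02 FPKM in those labelled Atg5 WT. Serpina3f had 10.3, 2.68 and 13.0 FPKM in the libraries labelled Atg5 KO and 1.07, 0.530 and 1.18 FPKM in those labelled Atg5 WT. Atg5 KO replicate 2 was the lowest library labelled Atg5 KO in these genes, which follows from choosing them by likeness to the family's profile. The chemokine gene Cxcl9 had 22.5, 9.80 and 22.3 FPKM in the libraries labelled Atg5 KO and 5.67, 2.10 and 4.47 FPKM in those labelled Atg5 WT.

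**Figure D5:**
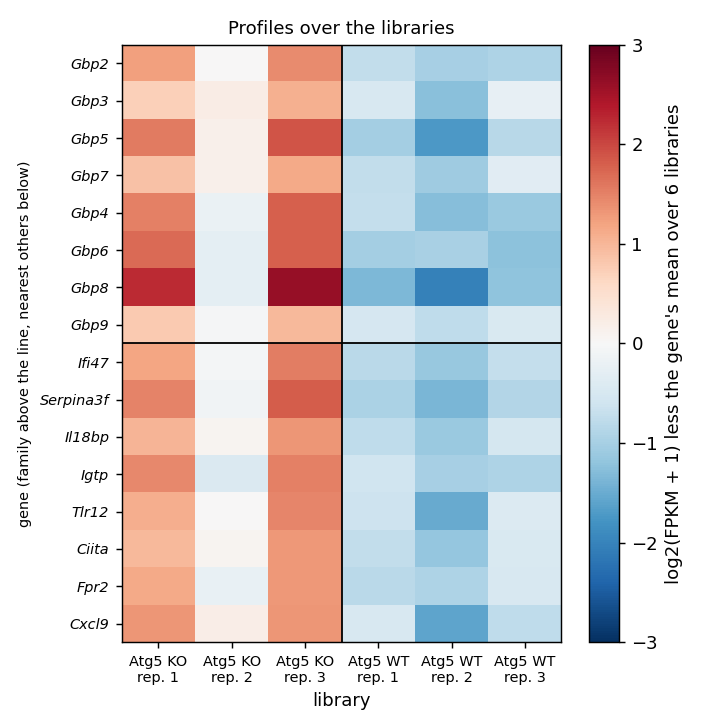
Centred log2(FPKM + 1), the value less the gene's mean over 6 libraries, for the 8 members (above the line) and the 8 nearest other genes (below), with libraries labelled Atg5 KO on the left and Atg5 WT on the right. Red is above the gene's mean and blue below; replicate 2 labelled Atg5 KO is near the mean of each gene, between replicates 1 and 3 of its group and the libraries labelled Atg5 WT.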

How the data were processed

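RNA of sorted tumour macrophages was sequenced in 6 libraries, 3 per group, with groups and mouse numbers taken from the labels, so p-values measure the spread between mice. The table deposited by the authors holds FPKM, per the file headers. STAR, CASAVA and mm10 appear, without versions, per the submitters' processing notes. The sources used here give no counting program, strand setting or annotation, so reads of overlapping genes on opposite strands cannot be told apart. In each library the smallest positive product of FPKM and gene length was taken as 1 read, and this step was refined on low values. Dividing each product by the step gave whole reads for 100% of values within 0.01 read. Recovered reads are the sums of these.

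The 12332 genes whose FPKM averaged 1 or more over all libraries were kept, log2(FPKM + 1) was taken, and group was fitted with limma 3.58.1 (limma-trend, R 4.3.3), two-sided, with Benjamini-Hochberg adjustment over all genes and a threshold of 0.05. The fit was tested on simulated reads with the same set dispersion for every gene. That spread was not taken from these mice, so the test checks the code and not the power here. Fold changes are on the log2(FPKM + 1) scale, which understates those of low genes; folds of means are of FPKM. Marker scores were compared by exact permutation. Members, gene lists and tests were chosen with earlier results of these data known. Of 136 list genes, 134 matched by symbol and 2 by identifier. Named were the members, other Gbp rows, up to 4 genes per pathway list with the largest difference, Ifng, Irf1, Atg5 and Lyz2, and 8 genes nearest in profile. Adgre1, C1qa, C1qb, Cd3e, Cd4, Ifngr1, Irf2, Jak1, Jak2, Socs1, Mx1, Mx2, F830016B08Rik, Ly6c2, Plac8, Csf3r, S100a8, S100a9 and Cxcr2 were named after their values were seen. A further gene that the rule names is not reported here. Identities were computed with Biopython 1.88, and promoters came from RefSeq. Alternatives were other pseudocounts, filters and scalings, limma-voom, covariates, a replicate block and leaving out libraries.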

Additional observations from a re-analysis of the deposited data

How the results depend on the processing

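The number of members whose groups did not overlap was 8 under each alternative for which it was computed, except after subtracting the macrophage score, an alternative chosen after seeing the data, where it was 2. Leaving out libraries cannot make separated groups overlap, and pseudocounts and filters keep the order of libraries, so overlap could not arise under them. Among the alternatives that gave 8, only median-ratio scaling, quantile scaling and limma-voom could have made groups overlap. The members' median difference ran from 1.28 to 2.44 over all alternatives and from 1.59 to 2.44 when single libraries were left out, and 0 members passed in any of them. Without replicate 2 of both groups, also added later, the members' median difference was 2.35, and the adjusted p of members by limma-trend ran from 0.0772 there to 0.906 without Atg5 KO replicate 3. Median-ratio and quantile scaling each moved the median of all genes to 0.03, against -0.09, and left the members 1.99 above it. The count of all genes called, 1 in the main analysis, was 0 without a filter, with median-ratio scaling, with the replicate block and without replicate 2 of both groups, and 2 with the macrophage score as a covariate or subtracted, both added after seeing the data. It ran from 0 to 18 when single libraries were left out, with 18 without Atg5 WT replicate 2 and 0 without any other single library; the cause was not tested. The monocyte and neutrophil score difference, -0.11, ran from -0.33 to 0.13 when single libraries were left out, turning positive without replicate 2 of either group (0.08 and 0.13). The 7 other scores kept their direction, but not their size. The macrophage difference, 0.63, was 0.13 without Atg5 WT replicate 2 and 1.02 without Atg5 WT replicate 3, and the epithelial one, -1.44, was -0.77 and -2.29. The fibroblast difference, -1.73, was -1.11 without Atg5 WT replicate 2.

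Deviations from the group mean in same-numbered libraries had correlations over genes of 0.21, -0.38 and 0.59 for replicates 1, 2 and 3. Pairs of unlike number ran from -0.81 (Atg5 KO replicate 1 with Atg5 WT replicate 3) to 0.73 (Atg5 KO replicate 1 with Atg5 WT replicate 2). Such deviations cancel within a group, so these values cannot decide whether the numbers pair mice. The replicate block called 0 members. It left the members' median at 1.92, which it could not change, since each replicate number occurs once in each group. It lowered the SE of each member, from 0.33 to 0.12 for Gbp3 and from 0.58 to 0.54 for Gbp6. With 3 mice a group, an exact permutation test cannot go below 0.1.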
